A study of Mus musculus with 10 samples.

Results

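The voltage-gated calcium channel subunit genes of the mouse spinal cord were followed over the 3 weeks after spinal cord injury. They were chosen by symbol: 10 genes, 8 for pore-forming subunits (Cacna1a, Cacna1b, Cacna1c, Cacna1d, Cacna1e, Cacna1g, Cacna1h and Cacna1i) and 2 for the extracellular alpha2delta subunits (Cacna2d1 and Cacna2d2). Of these, 9 were each paired with 1 gene-level transcript cluster (the probes laid over 1 locus, summarised as 1 signal), and all 9 passed the filter on low signal, among 11272 genes tested. Cacna1i was paired with no cluster or probe set under 1 symbol in the annotation used here and was not analysed here. The groups were wild-type ICR mice, an outbred stock, taken 1 day, 3 days, 1 week or 3 weeks after injury of the spinal cord, and wild-type ICR mice with a sham operation. The labels give an age of 4 weeks for all of them. If that is the age at surgery, age at collection and time after injury cannot be told apart. For the sham group the labels give no time of collection. Its age and time since surgery may therefore differ from those of the injured groups. The tissue was spinal cord at thoracic segment T10, and the RNA of 3 mice per group was mixed before hybridisation, so each group is 1 pool with 1 sample per level of summary. The labels do not say whether both levels were read from the same hybridisation. No value below therefore has a replicate, and no difference has a test. A gene is called lower or higher from a 2-fold difference on, that is, a log2 difference of 1 or more in size.

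Voltage-gated calcium channels open when the membrane depolarises and let calcium into the cell. The pore-forming subunit sets the channel's type. The P/Q and N types (Cacna1a and Cacna1b) act largely at nerve terminals, where the entering calcium triggers transmitter release. The R type (Cacna1e) is grouped with them here. L-type channels (Cacna1c and Cacna1d) serve dendrites and cell bodies and link activity to gene expression, and T-type channels (Cacna1g, Cacna1h and Cacna1i) open near the resting potential and shape burst firing. The alpha2delta subunits bring the pores to the surface and to terminals, and those encoded by Cacna2d1 and Cacna2d2 are the binding sites of gabapentin and pregabalin, drugs given for pain after cord injury.

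Promoter windows are shown for the 3 genes that stayed at least 2-fold lower at 3 weeks (Cacna2d2, Cacna1e and Cacna1b) and, as a contrast, for Cacna1d, whose cluster hardly differed from sham. Each window holds 250 bases before and 50 bases after a start annotated by RefSeq on GRCm38.p6, 5′ to 3′ on the gene's strand. Capitals mark the GC box, GGGCGG or its reverse complement.
Cacna2d2, chr9:107399630-107399929, plus strand: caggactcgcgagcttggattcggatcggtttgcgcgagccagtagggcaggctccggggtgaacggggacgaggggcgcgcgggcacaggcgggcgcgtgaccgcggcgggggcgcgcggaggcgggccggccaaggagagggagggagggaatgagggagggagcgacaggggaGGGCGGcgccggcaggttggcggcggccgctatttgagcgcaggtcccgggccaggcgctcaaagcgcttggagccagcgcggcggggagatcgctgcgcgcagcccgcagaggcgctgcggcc
Cacna1e, chr1:154725871-154726170, minus strand: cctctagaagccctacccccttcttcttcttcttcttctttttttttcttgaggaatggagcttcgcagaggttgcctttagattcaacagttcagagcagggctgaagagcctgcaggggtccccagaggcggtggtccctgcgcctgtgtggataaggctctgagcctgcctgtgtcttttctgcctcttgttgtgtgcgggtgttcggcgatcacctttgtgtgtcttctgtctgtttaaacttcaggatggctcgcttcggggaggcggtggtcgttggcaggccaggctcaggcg
Cacna1b, chr2:24763103-24763402, minus strand: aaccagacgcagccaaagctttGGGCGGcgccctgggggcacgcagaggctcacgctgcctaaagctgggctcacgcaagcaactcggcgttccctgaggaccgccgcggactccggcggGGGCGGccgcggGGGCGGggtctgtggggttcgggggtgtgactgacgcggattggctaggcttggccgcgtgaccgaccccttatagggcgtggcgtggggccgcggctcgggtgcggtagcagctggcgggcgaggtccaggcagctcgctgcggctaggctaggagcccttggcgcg
Cacna1d, chr14:30491107-30491406, minus strand: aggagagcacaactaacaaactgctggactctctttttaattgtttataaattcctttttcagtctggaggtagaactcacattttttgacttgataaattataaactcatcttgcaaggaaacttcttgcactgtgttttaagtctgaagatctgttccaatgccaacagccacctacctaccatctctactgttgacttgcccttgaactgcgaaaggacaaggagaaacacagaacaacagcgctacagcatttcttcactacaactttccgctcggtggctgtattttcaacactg
Cacna1d, chr14:30353437-30353736, minus strand: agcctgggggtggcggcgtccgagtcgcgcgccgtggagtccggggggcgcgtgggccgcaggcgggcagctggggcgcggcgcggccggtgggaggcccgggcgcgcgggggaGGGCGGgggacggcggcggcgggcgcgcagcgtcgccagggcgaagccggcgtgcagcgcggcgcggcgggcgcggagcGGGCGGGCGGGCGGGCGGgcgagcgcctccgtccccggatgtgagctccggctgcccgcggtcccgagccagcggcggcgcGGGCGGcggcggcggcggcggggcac

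The promoter table held windows for 6 of the 9 measured genes. The windows of the 3 genes that stayed lower differed in their counts of CG and GC boxes. In the Cacna1e window the letters atg of a start codon follow almost directly on the annotated start. That window may therefore not hold the promoter, which was not tested. The CG dinucleotide, frequent in CpG-island promoters, occurred 43 times in the Cacna2d2 window and 35 times in the Cacna1b window, but 11 times in the Cacna1e window, against a median of 7 over all 32851 windows. GGGCGG occurred once in the Cacna2d2 window, 3 times in that of Cacna1b and 0 times in that of Cacna1e, and 35.7% of all windows held it on either strand. Cacna1d has an annotated start in a window with 4 CG and 3 matches to TATAAA, which 13.6% of all windows held, and another in a window with 63 CG and 6 GC boxes, some of which overlap. The letters of a cyclic AMP response element (TGACGTCA, in 1.79% of all windows), of the E-box CACGTG (7.15%) and of GGACAGC (6.56%), part of the site of the neuronal repressor REST, had no match in the 9 windows of the measured genes. All these motifs were searched on both strands, and a match or its absence describes these letters only.

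After injury the calcium channel genes lay mostly below sham, by their median farthest at 1 week, and 8 of the 9 regained part of the difference by 3 weeks. The order of the genes was much the same throughout: Cacna2d2 and Cacna1e had the largest differences at all 4 times, Cacna1b was next, and the cluster of Cacna1d stayed near its sham level. At 1 day 2 of the 9 genes were at least 2-fold lower, against 4.09% of all tested genes. At 3 days there were 4 of 9 against 9.58%, at 1 week 5 of 9 against 13.9%, and at 3 weeks 3 of 9 against 3.40%. Counting any difference below 0, all 9 members were lower at 1 day (66.2% of all tested genes), and 8 of 9 at 3 days (61.7%), at 1 week (54.7%) and again 3 weeks after injury (48.5%). No member was 2-fold higher at any time, while the share of all tested genes in time order was 3.79%, 5.94%, 11.3% and 8.49%. The median log2 difference of the members in time order was -0.59, -0.91, -1.14 and -0.56, beside medians of all tested genes of -0.15, -0.12, -0.06 and 0.00. By the median of their exon-level probe sets, each a few probes within 1 exon, 1 of 9 members was lower at 1 day (5.54% of the 14378 genes with such probe sets), 7 of 9 at both 3 days (11.8%) and 1 week (15.6%), and 3 of 9 after 3 weeks (3.65%). The 4 comparisons share the sham array, so an error in that array would enter all of them.

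**Figure D1:**
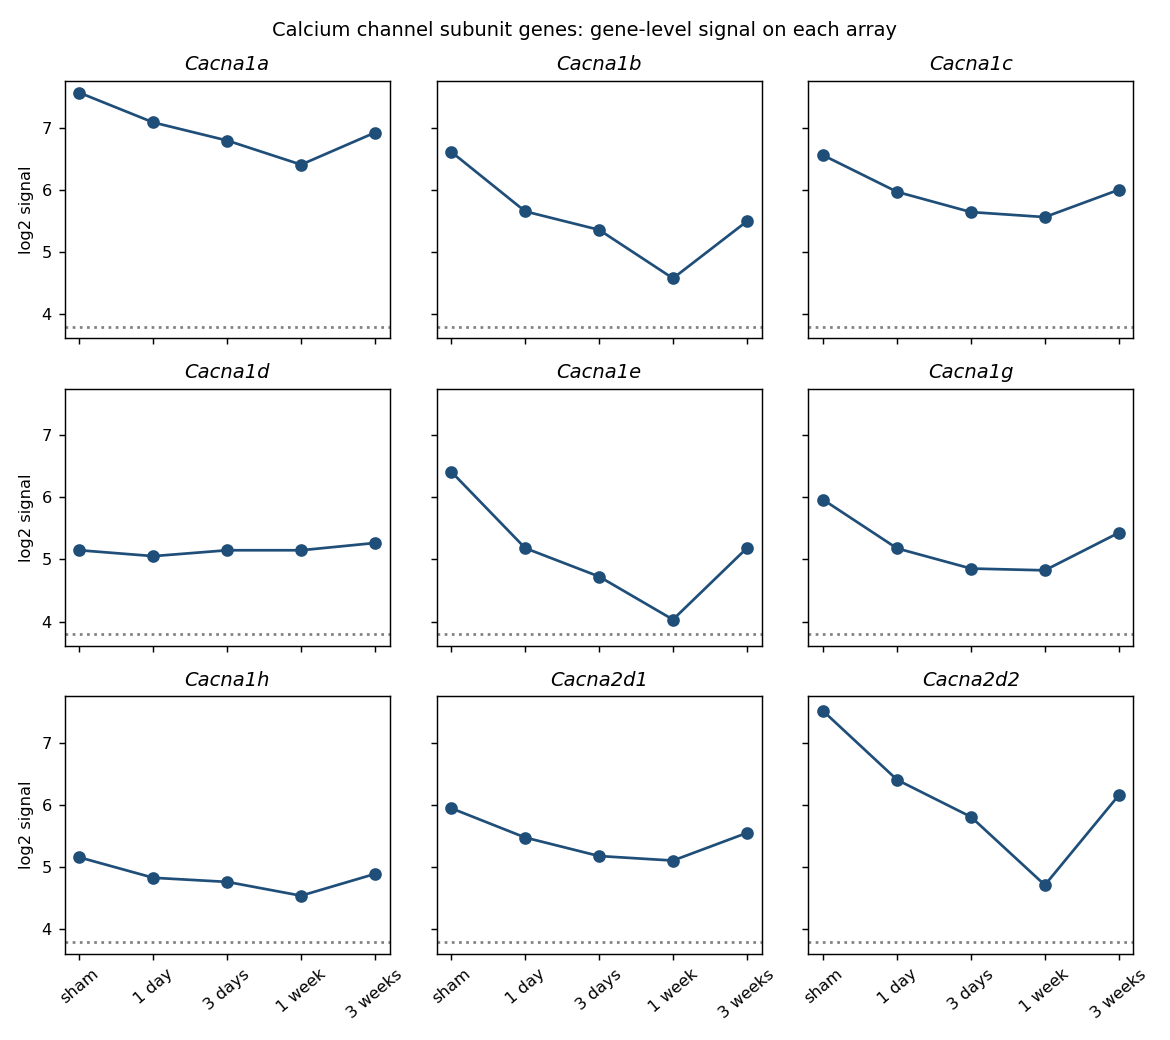
Log2 signal of the gene-level transcript cluster of 9 calcium channel genes (y axis) on the sham array and on the arrays of 1 day, 3 days, 1 week and 3 weeks post-injury (x axis, evenly spaced). Each point is 1 array of pooled RNA, and the dotted line is the filter level of 3.79. Every gene but Cacna1d reaches its lowest point at 1 week, while Cacna1d stays between 5.05 and 5.27. Heights of different genes are not comparable.

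The genes of the P/Q-, N- and R-type pores were lower at all 4 times. Cacna1e, the R-type pore, had a log2 signal of 6.41 (sham), 5.18 (1 day), 4.72 (3 days), 4.03 (1 week) and 5.18 (3 weeks). At the gene level every injured array was at least 2-fold below sham, with differences of -1.23, -1.69, -2.38 and -1.23 in time order. The 1 week array was 5.21-fold below sham, and its signal lay close to the filter level of 3.79. Over its 45 exon-level probe sets, the median difference ± SD at 1 week was -2.72 ± 1.03, and 45 of 45 were below sham. Here and below, that SD is between probe sets on 1 pair of arrays and does not measure how mice differ.

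Cacna1b, the N-type pore that carries much of the calcium entry at pain-fibre terminals in the dorsal horn, was at 6.61 (sham), 5.65 (1 day), 5.35 (3 days), 4.57 (1 week) and 5.49 (3 weeks). The difference of -0.96 at 1 day was just short of 2-fold, and those of -1.25, -2.04 and -1.12 at the later times were past it. Its 55 probe sets had a median of -2.43 ± 1.14 at 1 week, with 53 below sham. Cacna1a, the P/Q-type pore that drives release at the neuromuscular junction and most central synapses, was at 7.56 (sham), 7.08 (1 day), 6.79 (3 days), 6.40 (1 week) and 6.92 (3 weeks). At the gene level it passed 2-fold at 1 week only, at -1.16 (probe sets -1.22 ± 0.67, 43 of 43 below sham). The median of its probe sets was past 2-fold at 3 days too, at -1.11 ± 0.70. So these 3 types moved in 1 direction by unequal amounts, and at 1 week Cacna1b and Cacna1e were more than 4-fold below sham where Cacna1a was 2.23-fold below it. Whether that inequality exceeds the spread between mice cannot be tested with 1 array per group. The size of a difference also varied with the brightness of the probe sets. In 8 of the 9 members the dimmer ones had the lower median at 1 week. For Cacna1b the dimmer were at -2.63 and the brighter at -2.03, and for Cacna1e at -2.91 and -2.70. Cacna1a went the other way, at -1.20 and -1.29.

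The 2 alpha2delta genes also differed in size. Cacna2d2 was at 7.51 (sham), 6.41 (1 day), 5.81 (3 days), 4.71 (1 week) and 6.16 (3 weeks). These are differences of -1.11, -1.70, -2.80 and -1.36, and the 6.97-fold gap at 1 week was the largest of the 9 genes. At that time 0.798% of all tested genes lay as low or lower. All 41 of its probe sets were below sham at each of the 4 times, with a median of -3.00 ± 1.02 at 1 week. Cacna2d1, the subunit linked to neuropathic pain in rodents, was at 5.95 (sham), 5.48 (1 day), 5.18 (3 days), 5.11 (1 week) and 5.55 (3 weeks), and its cluster stayed within 2-fold of sham (-0.84 at 1 week). Over 29 probe sets its median at 1 week was -1.18 ± 0.57, past 2-fold, so the call for Cacna2d1 depends on the level of summary. Its cluster and the median of its probe sets were below sham on every injured array. Single probe sets were above sham at times, such as 4470835 by 0.145 at 1 day.

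At the gene level the T-type genes had smaller differences than Cacna2d2, Cacna1e and Cacna1b at all 4 times. Cacna1g, a T-type pore found in many neurons, was at 5.96 (sham), 5.18 (1 day), 4.85 (3 days), 4.82 (1 week) and 5.43 (3 weeks). Its difference hardly grew after 3 days, with -1.11 then and -1.14 at 1 week, and it passed 2-fold at those times alone. Its probe sets had medians of -1.60 ± 0.85 at 3 days and -1.42 ± 0.77 at 1 week (n = 45). Of these, 2 were not below sham at 1 week: the brightest, at 9.30 against 9.28 in sham, and a dimmer one, at 5.48 against 5.44 in sham. Cacna1h, a T-type pore of sensory neurons and also of smooth muscle, was at 5.16 (sham), 4.83 (1 day), 4.76 (3 days), 4.54 (1 week) and 4.89 (3 weeks), and stayed within 2-fold of sham throughout. Its 34 probe sets were all below sham at 1 week, with a median of -0.96 ± 0.65.

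Of the L-type genes, Cacna1c, the pore of heart and smooth muscle as well as of neurons, was at 6.55 (sham), 5.96 (1 day), 5.64 (3 days), 5.56 (1 week) and 6.0 (3 weeks). At 1 week it was 1.99-fold below sham, just short of the call, and the median of its 59 probe sets was -1.19 ± 0.67. Cacna1d, the L-type pore that opens at lower voltages and supports persistent inward currents in motor neurons, stood apart. Its cluster was at 5.15 (sham), 5.05 (1 day), 5.15 (3 days), 5.15 (1 week) and 5.27 (3 weeks), with the sham, 3 day and 1 week values equal to the last deposited digit. Such ties are common in the gene-level table: 34.4% of tested genes had equal values on 2 or more arrays, and 452 genes had the same tie as Cacna1d. At the exon level, 1.87% of probe sets had one. A tie is therefore a property of the deposited summary, and it does not measure the absence of change.

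**Figure D2:**
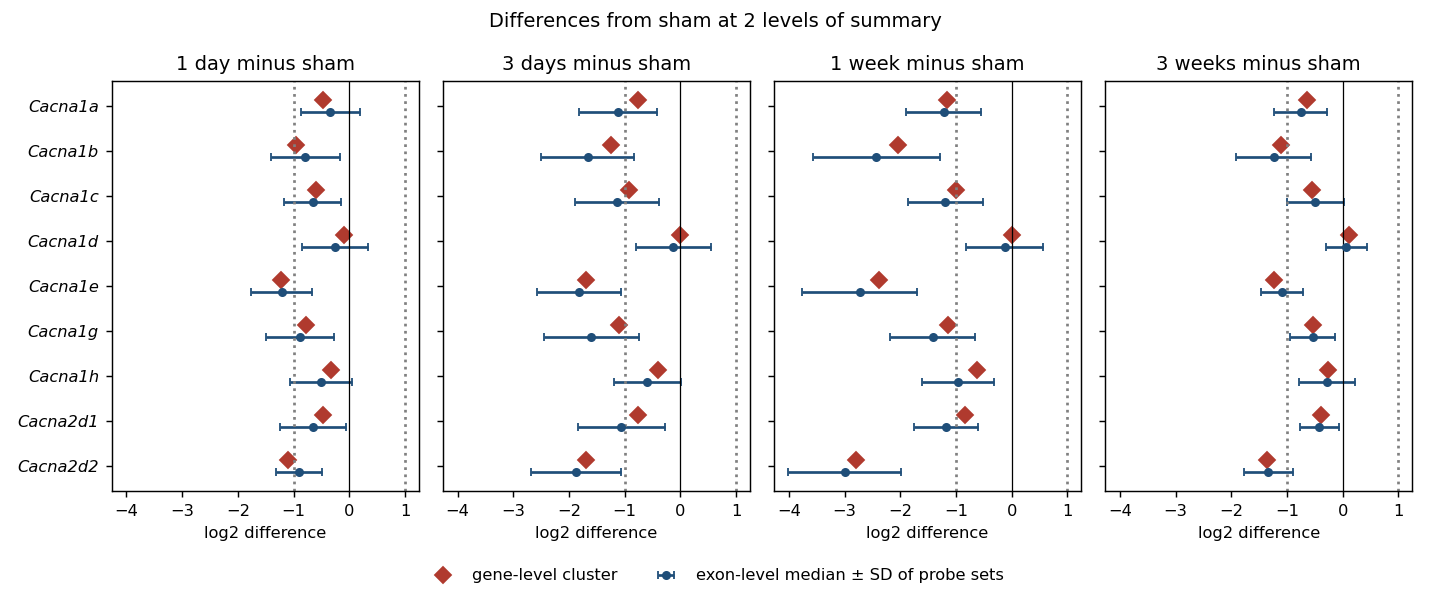
Log2 difference from sham (x axis) of 9 calcium channel genes (y axis) in 4 panels from 1 day to 3 weeks after injury. Diamonds are the gene-level cluster, circles the median of the gene's exon-level probe sets with bars of ±1 SD between probe sets, and dotted lines mark 2-fold. Cacna2d2, Cacna1e and Cacna1b lie farthest to the left at 1 week at both levels, and the cluster of Cacna1d lies at 0 there, with its probe set median at -0.13.

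The probe sets of Cacna1d did not move together. At 1 week 24 of 42 were below sham, with a median of -0.13 ± 0.70, and 3 were at least 2-fold lower while 3 were at least 2-fold higher. The brightest probe set of the gene (4815914) was among the higher ones, at 7.42 (sham), 7.58 (1 day), 8.46 (3 days), 8.97 (1 week) and 7.62 (3 weeks). Probe set 4613829 was at 5.30 (sham), 5.58 (1 day), 7.07 (3 days), 7.06 (1 week) and 5.52 (3 weeks). The remaining one, 5600028, was at 6.30 (sham), 5.71 (1 day), 6.92 (3 days), 7.67 (1 week) and 5.97 (3 weeks). All 3 were above sham at 3 days and 1 week, and at 3 weeks they were at 0.20, 0.22 and -0.33 from it.

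The 3 probe sets that were lower at 1 week had another course. Probe set 4714805 was at 6.43 (sham), 5.42 (1 day), 5.23 (3 days), 5.14 (1 week) and 6.44 (3 weeks). Probe sets 4898846 and 5204697 were at -1.14 and -1.01 at 1 week. These 3 were already below sham at 1 day, and at 3 weeks the last pair stood at -0.56 and -0.17 from it. Of the 1879 genes represented by 20 or more probe sets, 18, or 0.958%, had at least 3 probe sets lower and at least 3 higher by 2-fold at 1 week. Cacna1d was the only member among them, and this count was made after its probe sets had been seen. The limits of 3 lower and 3 higher equal its own counts, so its place among the 18 was fixed in advance. In the other 8 members no probe set was 2-fold higher at 1 week. The exons that these probe sets cover were not placed, because no annotation of the submitters' genome build was used here, and hybridisation of other transcripts to single probe sets was not tested.

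**Figure D3:**
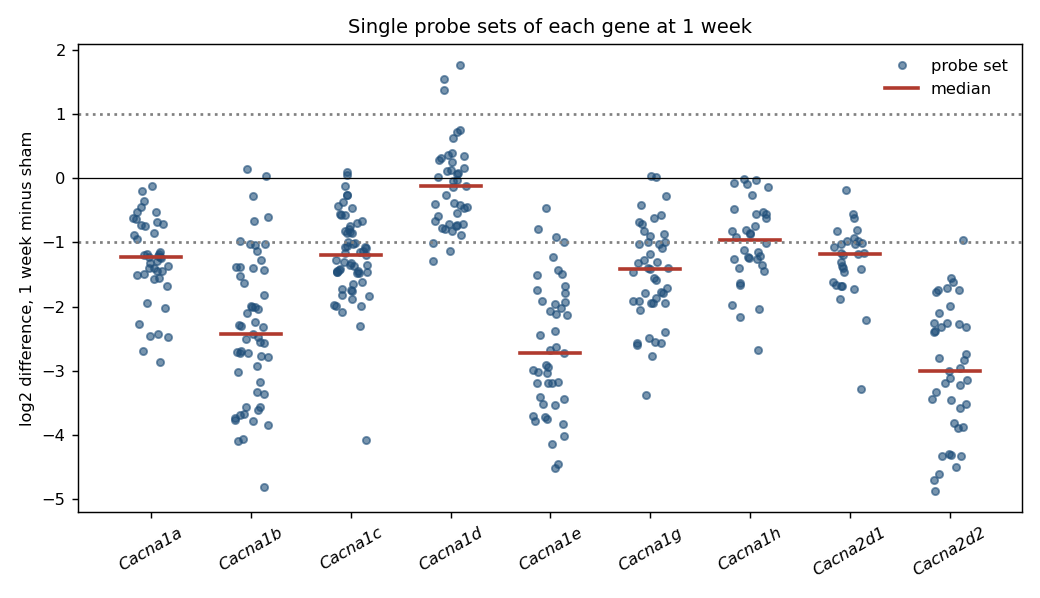
Log2 difference between 1 week and sham (y axis) of every exon-level probe set that passed the filter, for 9 calcium channel genes (x axis). Each point is 1 probe set, red bars are medians and dotted lines mark 2-fold. Cacna1d alone has points above the upper line, 3 of its 42.

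**Figure D4:**
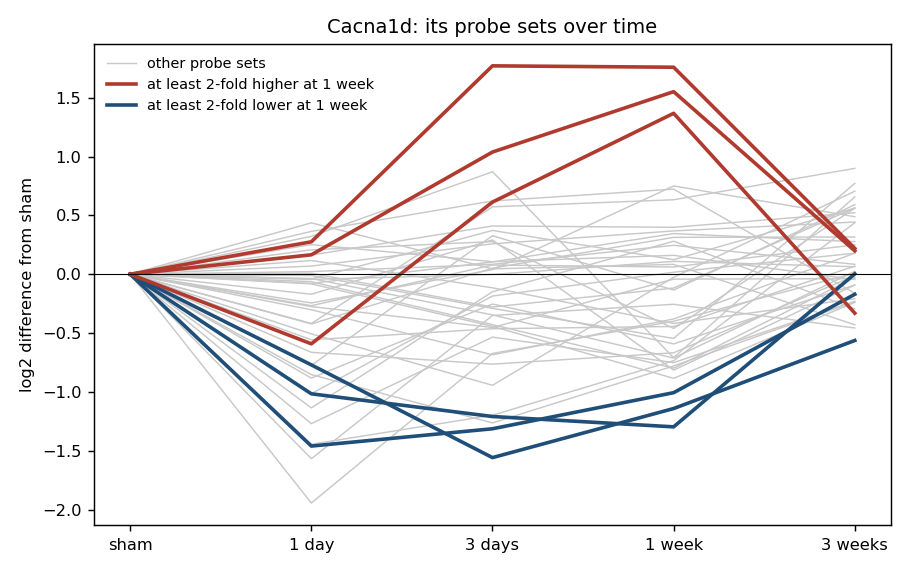
Log2 difference from sham (y axis) of the 42 probe sets of Cacna1d at sham, 1 day, 3 days, 1 week and 3 weeks (x axis, evenly spaced). Red lines are the 3 probe sets at least 2-fold higher at 1 week, blue lines the 3 at least 2-fold lower and grey lines the other 36. The red lines peak at 3 days or 1 week and lie between -0.33 and 0.22 at 3 weeks.

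All 9 members were higher at 3 weeks than at 1 week, as were 60.1% of all tested genes, and 2 of 9 by at least 2-fold, against 7.05%. Cacna1d was lower instead with centred arrays (-0.05) and quantile normalization (-0.08), and Cacna1e was then just short of 2-fold, at 0.98 with both. At the exon level Cacna1b also passed 2-fold, at 1.08. Cacna2d2 was 1.45 higher on the log2 scale at 3 weeks than at 1 week, and Cacna1e 1.15 higher. The step was 0.92 in Cacna1b, 0.60 in Cacna1g, 0.52 in Cacna1a, 0.44 in both Cacna1c and Cacna2d1, 0.35 in Cacna1h and 0.12 in Cacna1d. In the 8 members below sham at 1 week, the part of the log2 difference regained by 3 weeks lay between 44.2% and 56.8%. Over the 5 members that were at least 2-fold lower at 1 week its median was 48.3%, beside a median of 54.0% and quartiles of 44.4% and 62.6% over all 1571 genes called lower at 1 week. The 1 week array enters both the difference and the step, so an error in that array would move the share of every gene. These shares are those of the deposited values, where the members' median step was 0.52. It was 0.35 with centred arrays and 0.38 with quantile normalization, so the regained part of the 8 members was smaller there. By filtered exon-level probe sets the median step was 0.82. At 3 weeks 8 of the 9 were still below sham, and Cacna1d was at 0.12 above it.

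The other genes of the channel complex were counted from a list of 16 further subunits, of which 9 were tested. At 1 week 6 of these 9 were at least 2-fold lower and 0 were higher, with a median of -1.53, beside 13.9% lower and 11.3% higher among all tested genes. Cacna2d3, a further alpha2delta gene, was at -0.86, -1.67, -2.36 and -0.98 in time order. The 3 tested beta subunits, which sit on the inner face of the pore and aid its transport, were lower at 1 week: Cacnb4 at -2.22 (probe sets -2.20 ± 0.21, n = 16), Cacnb2 at -1.87 and Cacnb1 at -1.18. Of the gamma family, Cacng2, which encodes stargazin, an auxiliary subunit of AMPA receptors rather than of calcium channels in most neurons, was at -3.64 at 1 week. Cacng5 was at -1.53, and Cacng4 stayed between -0.76 and -0.35. Cacnb3 had exon-level probe sets alone (n = 13), with a median of -0.94 ± 0.44 at 1 day and -0.27 ± 0.32 at 1 week, so it was lowest at the earliest time. Cacna2d4, Cacng3, Cacng6, Cacng7 and Cacng8 were not analysed here.

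Cacna1s and Cacng1 of that list belong to skeletal muscle. Cacna1s, the pore of the muscle fibre, passed the filter through the 1 day array alone, with 3.97 there against 3.58 in sham, so its difference of 0.39 at that time is given with nothing read from it. Cacng1, the gamma subunit of the same muscle channel, was highest at 3 days, at 0.68, and was at 0.18 at 1 day. Of the skeletal muscle markers, 8 of 9 were at least 2-fold higher at 1 day (median 3.89, where 3.79% of all tested genes were higher). At 3 days it was again 8 of 9 (5.94%), and at 1 week 4 of 9 (11.3%, median 0.92), when Cacna1s was at -0.06 and Cacng1 at -0.38. Of the markers, Pvalb was lower at 1 week, at -2.67. Myl1 passed the filter through injured arrays alone and is part of these counts and medians, so nothing is read from its being higher. The sum of these markers' linear signals, as log2, was 8.31 (sham), 11.64 (1 day), 10.78 (3 days), 8.65 (1 week) and 8.42 (3 weeks). The part of muscle RNA in the values of Cacna1s and Cacng1 was not tested. Cacna1f, the retinal L-type pore, was listed at 2.76 on all 5 arrays, below the filter level.

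Partners of the channels fell into lists that differed from one another. Of 11 tested presynaptic partners, the proteins that dock vesicles beside the channels or sense the calcium, 10 were at least 2-fold lower at 1 week with a median of -2.09, beside the 13.9% of all tested genes. The calcium sensors of vesicle release Syt2 and Syt1 had the largest differences, at -3.20 and -3.18. Syt1 and Snap25 of this list are also neuron markers. Among channel regulators, 2 of 10 were lower and 4 of 10 higher at 1 week, where 11.3% of all tested genes were higher. The sodium leak channel Nalcn was at -2.14 and Stac2, an adaptor of L-type channels, at -1.60. On the higher side were the thrombospondins, matrix proteins that bind the alpha2delta protein of Cacna2d1: Thbs1 was at 5.29 (probe sets 5.33 ± 0.94, n = 27), Thbs2 at 3.86 and Thbs4 at 1.34. Lrp1, a receptor that also binds alpha2delta, was at 1.25. The inhibitory GTPases Rrad and Gem were at 0.79 and 0.28, and Cachd1, a relative of alpha2delta, at -0.79. Stac was at -0.32, Rem2 and Stac3 did not pass the filter, and Rem1 was not analysed here.

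Genes that act on calcium after it has entered were lower in part. Of 10 tested calcium sensors and effectors, 7 were at least 2-fold lower at 1 week and 0 were higher, with a median of -1.23, where 13.9% of all tested genes were lower and 11.3% higher. Camk2a and Camk2b, which encode subunits of a calcium-dependent kinase of synapses, were at -2.63 and -2.41. Kcnn2, a calcium-activated potassium channel singled out after its values were seen, was already at -1.80 at 1 day and stayed at -1.72 and -1.81 at 3 days and 1 week. Of 19 genes of calcium stores and extrusion, 7 were lower at 1 week and 1 higher, with a median of -0.47, beside the same shares of all tested genes. The higher one was Atp2a3, a calcium pump of internal stores, named after its values were seen. The plasma membrane calcium pumps Atp2b3 and Atp2b2 were at -2.98 and -2.88. Atp2a1, the calcium pump of fast muscle, was at 4.46 at 1 day and is also 1 of the muscle markers. Itpr3, an intracellular calcium release channel, was at 1.02 at 3 weeks.

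Markers of neurons, oligodendrocytes and microglia, and part of the astrocyte markers, were lower beside the calcium channel genes at some or all of the times. At 1 week 9 of 9 tested neuron markers were at least 2-fold lower (13.9% of all tested genes), with a median of -2.17, and at 1 day, 3 days and 3 weeks their medians were -0.40, -0.80 and -0.86. Their summed linear signal, as log2, was 13.93 (sham), 13.60 (1 day), 13.22 (3 days), 12.08 (1 week) and 13.25 (3 weeks). The 4 tested motor neuron markers had a median of -2.75 at 1 week. Cacna2d2 and Cacna1e lay below the neuron median at all 4 times, and Cacna1b did so at 1 day, 3 days and 3 weeks. Cacna1c and Cacna1g lay below it at 1 day and 3 days, and Cacna1a and Cacna2d1 at 1 day, while 7 of the 9 members lay above it at 1 week. The members' own median was below that of the neuron markers at 1 day (-0.59) and 3 days (-0.91). It was above that of the neuron markers at 1 week (-1.14) and 3 weeks (-0.56). In these bulk samples, fewer neurons and less RNA per neuron cannot be told apart, and the part of these cell types in the members' differences was not tested. Oligodendrocyte markers were lower too, with medians of -0.12, -0.50, -1.32 and -0.77 in time order and 4 of 5 at least 2-fold lower at 1 week. Astrocyte markers had medians of -0.87, -1.30, -0.53 and 0.45, with 3 of 5 at least 2-fold lower at 3 days (9.58% of all tested genes). Reactive astrocyte markers were higher, with medians of 2.98, 3.13, 3.01 and 3.18 in time order. At each time 5 of 6 were at least 2-fold higher, against 3.79%, 5.94%, 11.3% and 8.49% of all tested genes. Gfap was above sham at all 4 times, by less than 2-fold. Microglia markers had medians of -1.59, 0.03, 0.56 and 0.60, with 4 of 4 at least 2-fold lower at 1 day (4.09%). Macrophage markers were at least 2-fold higher in 6 of 6 at 1 week (11.3% of all tested genes), with a median of 6.77. Fibroblast and meningeal markers were so in 6 of 6, with a median of 4.52. Some markers lay below the filter level of 3.79 in sham: Timp1 (reactive astrocytes), Msr1, Cd36 and Gpnmb (macrophages) and Postn (fibroblasts and meninges). They passed the filter through injured arrays alone. Nothing is therefore read from their being higher, and they are part of the counts and medians above. The other macrophage markers, Cd68, Lgals3 and Adgre1, were at 5.50, 6.46 and 4.93 at 1 week. Neuron, oligodendrocyte and astrocyte markers averaged 10.19, 11.11 and 8.60 in sham on the log2 scale, so the defining markers of the labelled tissue were present.

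**Figure D5:**
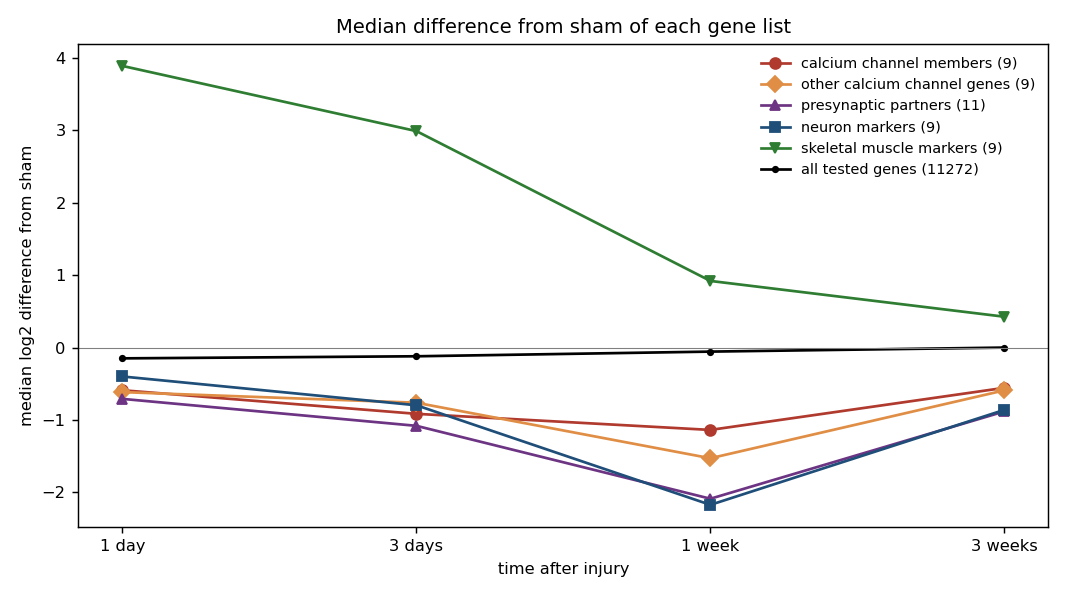
Median log2 difference from sham (y axis) at the 4 times after injury (x axis, evenly spaced) for the calcium channel members and 5 other sets, with the number of genes tested in parentheses. The members reach -1.14 at 1 week, between the medians of all tested genes (-0.06) and of neuron markers (-2.17), and the muscle markers have their maximum of 3.89 at 1 day.

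The tested genes nearest to each member were found by the root mean square distance between their 4 log2 differences from sham. With 4 values from 5 arrays such likeness is loose, and the number of genes within a distance of 0.20 shows how loose. For Cacna2d2, 45 genes lay that close, the nearest being Glp1r (0.08) and Ankrd34b (0.09). Cacna1e had 49, with Grin2a (0.06), an NMDA receptor subunit gene, and Caskin1 (0.06) first. Cacna1b had 133, led by Tmcc2 (0.04) and Arpp21 (0.06). The other members had more: 254 for Cacna1g (Trp53bp1 and Myh10 first), 436 for Cacna1a (Scamp1 and Camkk2), 471 for Cacna1c (Ralgapa1 and Fnbp1) and 645 for Cacna2d1 (Slc9a8 and Herc2). Cacna1h had 1190 (Ap2m1 and Agpat3) and Cacna1d 2931 (Lrrc46 and Mns1). Among the members themselves, Cacna1a and Cacna1c were closest (0.13), and Cacna1d and Cacna2d2 farthest apart (1.87).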

How the data were processed

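Per the design text, 15 mice formed 5 groups of 3, and the RNA of each group was mixed by equal mass. Each pool has a gene-level and an exon-level sample, 10 in all, grouped by title. The authors deposited log2 values for 23332 transcript clusters and 229581 probe sets. The base is not stated: base 2 was taken because the natural logarithm would put the highest gene-level signal at 408575, above the 65535 of a 16-bit scanner. Per the submitters' processing notes, GCOS and the mm8 build were used. Background correction and normalization were not given in the sources used here. The medians of the arrays spanned 0.24 (gene level) and 0.43 (exon level).

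Values were used as deposited (Python 3.11.15, pandas 2.3.3). Symbols came from the platform annotation, updated through a RefSeq table of GRCm38.p6. No cluster or probe set with several symbols was named. Clusters needed a highest value at or above the 40th percentile (3.79), and probe sets likewise (4.85). The brightest cluster stood for a gene, and each member had 1. The calling of differences was tested on simulated data. With 1 array per group no test or p-value was computed, the number of arrays limits the precision, and the tables carry no detection call.

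All members are named. Further named genes are, per list, up to 2 largest rises and falls, the whole lists of other subunits and regulators, and the 2 nearest genes of each member. Probe sets of Cacna1d were singled out after their values were seen. Members and lists were chosen with earlier results of these data known. Alternatives were array centring, quantile normalization, other filters and the exon level.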

Additional observations from a re-analysis of the deposited data

How the results depend on the processing

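Over 6 alternatives, no calcium channel gene that was at least 2-fold lower in the deposited values changed sign, and no member became 2-fold higher against sham. Of 90 group values recomputed, 83 kept their side of the 2-fold level or stayed within 1.5 times the count. Part of that agreement was fixed in advance. Leaving out the filter could not change a member's value, because all 9 members passed it with 1 cluster each. The filter at the 60th percentile left the value of every member it kept unchanged. The number of members lower at 1 day was 1 in place of 2 with quantile normalization and with either exon-level median, because Cacna2d2 was then at -0.89 or -0.90. At 3 days it was 7 in place of 4 with filtered exon-level probe sets, and the median was -1.13 there, -1.08 over all probe sets and -1.11 with a filter at the 60th percentile, which dropped Cacna1d and Cacna1h. The count at 1 week lay between 5 and 7 and that at 3 weeks between 2 and 3. The 3 weeks count was 2 over all probe sets, where Cacna1e was just short of 2-fold, at -0.99. Quantile normalization moved the median of all tested genes from -0.15 to -0.01 at 1 day and from 0.00 to -0.11 at 3 weeks, and centring moved it to -0.16 at 3 weeks. The members' own median at 3 weeks was -0.65 with quantile normalization and -0.71 with centring. With either, the difference of Cacna1e between 3 weeks and 1 week was 0.98. The cause of these differences between settings was not tested. No paired analysis was possible because each group is 1 pooled sample, and no replicate could be left out.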
